A study of Rattus norvegicus with 4 samples.

Results

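The genes described here are 5 transcription factors known for driving epithelial-mesenchymal transition (EMT), *Snai1*, *Snai2*, *Twist1*, *Zeb1* and *Zeb2*, together with the transcription factor *Runx1*. The 6 genes were chosen with earlier results of these data known, and *Runx1* is among those that the authors listed from these same arrays. Probe sets of the 6 were then taken by name alone, as all whose only gene symbol in the platform annotation is 1 of these 6 names. Of the 6 genes, 5 had a probe set, and the 5 genes held 11 of the 31042 probe sets on the array after control probe sets were left out. *Snai2* had no probe set under its symbol alone in the annotation used here and was not analysed. RNA came from lens capsules with lens epithelial cells (LECs) of female albino Sprague-Dawley rats, in which extracapsular lens extraction (ECLE), the removal of the lens content through the opened capsule, was performed at 7 weeks of age. Capsules were collected when the surgery was completed (day 0, 7 weeks old, 1 array), 7 days later (1 W, 8 weeks old, 2 arrays labeled as separate biological replicates) and 14 days later (2 W, 9 weeks old, 1 array). All groups had therefore undergone ECLE, in both eyes, and no unoperated lens is among these arrays. The methods describe the arrays as made from right eyes. They also name more samples per group than there are arrays analysed here. The number of eyes or animals behind each array is unknown.

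EMT is the process by which epithelial cells lose their junctions and take on a migratory, matrix-producing state, and in LECs left on the capsule it is tied to posterior capsule opacification. SNAI1, ZEB1 and ZEB2 are zinc finger repressors that bind E-boxes, a class of short DNA motif, in genes such as *Cdh1*, which encodes E-cadherin. TWIST1 is a basic helix-loop-helix factor that also acts through E-boxes, and ZEB2 has a role of its own in mouse lens development. RUNX1 binds DNA through its runt domain together with its partner CBFB and is best known as a regulator of blood cell formation, including the myeloid cells that give rise to macrophages.

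The promoter windows of *Snai1*, *Zeb1* and *Runx1* are shown because the first 2 of them hold the E-box that SNAI and ZEB proteins bind and because the *Runx1* probe sets had the largest ratios of the 11. Each window covers the 250 bases before the start that the RefSeq promoter table gives for the gene on the build GRCr8, and is written 5′ to 3′ on the strand of the gene, with the E-box in capitals. The *Snai1* window lies at chr3:176667226-176667475 on the plus strand, the *Zeb1* window at chr17:56810654-56810903 on the minus strand and the *Runx1* window at chr11:45421326-45421575 on the minus strand.
Snai1: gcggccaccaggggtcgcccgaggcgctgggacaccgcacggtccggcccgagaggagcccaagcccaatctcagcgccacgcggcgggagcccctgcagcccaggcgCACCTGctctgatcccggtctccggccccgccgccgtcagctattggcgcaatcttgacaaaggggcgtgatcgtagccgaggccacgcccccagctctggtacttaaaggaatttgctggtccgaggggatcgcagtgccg
Zeb1: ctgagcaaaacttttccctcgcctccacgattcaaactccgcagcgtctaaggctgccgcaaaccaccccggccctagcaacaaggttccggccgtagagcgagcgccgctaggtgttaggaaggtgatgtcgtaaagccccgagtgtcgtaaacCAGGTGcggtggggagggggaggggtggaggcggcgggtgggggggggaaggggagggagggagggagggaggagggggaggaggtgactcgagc
Runx1: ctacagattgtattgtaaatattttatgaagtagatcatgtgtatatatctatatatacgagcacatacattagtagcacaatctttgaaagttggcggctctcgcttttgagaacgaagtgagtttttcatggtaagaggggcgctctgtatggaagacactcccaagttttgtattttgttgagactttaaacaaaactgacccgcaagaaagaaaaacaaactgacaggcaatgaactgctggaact
Both strands of the 5 windows found in the promoter table were searched for CAGGTG, the E-box, and for the core of the RUNX motif, which reads TGTGGT. The motifs can overlap each other only at their ends. *Snai1* had the E-box on the other strand, starting at base -142, and *Zeb1* had it starting at base -95 relative to the start, whereas *Twist1*, *Zeb2* and *Runx1* had no match. No window of the 5 held the RUNX core. Among all 33469 windows of the same length, 15.9% held the E-box and 14.5% held the RUNX core in either orientation. The windows of *Snai1*, *Twist1* and *Zeb1* had 69.6, 69.2 and 65.2% G and C, and that of *Zeb2* had 47.6%, beside a median of 51.2% over all windows. The *Runx1* window had 37.2%. The starts used for *Runx1* and *Zeb1* are not the first annotated base of the gene but lie 138975 and 502 bases downstream of it, so that both windows are inside the gene's span and the *Zeb1* E-box position counts from that inner start. A match describes these letters only, since no binding was measured on these arrays.

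The arrays differed in overall brightness, with a median intensity of 57 on day 0, of 45.2 and 46.7 at 1 W (replicates 1 and 2) and of 31.9 at 2 W. Each array was therefore divided by its mean intensity before ratios to day 0 were taken, and ratios are given on the log2 scale unless called folds. The 1 W value is the mean of both replicates. The brighter probe sets, from the 40th percentile of mean level upwards, were tested with limma (18625 in all, 9 of the 11). Their log2 ratios had a median of -0.08 at 1 W and one of -0.26 at 2 W. The 2 replicates at 1 W differed by a median of 0.21 log2 units, and the 90th percentile of that difference was 0.73. With 1 array at day 0 and 1 at 2 W, these groups were assumed to vary like the 2 arrays at 1 W. The comparisons of 1 W and 2 W share the day 0 array and are not independent. All 12 lens epithelium markers with a probe set passed the level filter, and 0 of them passed the adjusted test. Their summed level relative to day 0 was 1.02 and 0.984 in the 1 W replicates and 1.14 at 2 W, a sum that rests on the brightest genes, and single members differed from it. The list also holds a gene of lens fibers (*Lim2*), so that the sum does not measure the epithelium alone. At 2 W the lens transcription factors *Foxe3* and *Pax6* were at 0.363-fold and 0.508-fold and *Lim2*, which encodes a lens fiber membrane protein, at 2.94-fold (limma adjusted p 0.0567, 0.0577 and 0.0602, genes picked after their values were seen). *Cdh1* (0.27-fold) and *Sox2* (0.489-fold) were also lower at 2 W, both named here after their values were seen. *Cdh1* is counted again among the epithelial genes below. *Cryab* and *Cryaa*, the 2 brightest of the list, were higher at 2 W, at 1.52-fold and 1.62-fold. The rest of the list was named after its values were seen. *Dkk3*, *Prox1* and *Maf* were at 1.32-fold, 1.21-fold and 1.08-fold, and *Six3* and *Gja1* at 0.366-fold and 0.687-fold. Of the 12, 5 were below day 0 on each later array, beside 33.4% of all genes. This count was 3 with median scaling and 8 without scaling. Above day 0 on each were 3 of the 12, beside 26.5% of all genes.

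No probe set of the 5 genes passed an adjusted p of 0.05 at 1 W or 2 W, where limma called 0.0483% of all tested probe sets in each comparison. By size, *Runx1* was above day 0 on all 3 later arrays (12.3-fold at 1 W and 6.78-fold at 2 W), as was *Twist1* (2.24-fold and 2.83-fold). *Zeb2* was below day 0 at all 5 probe sets, although 1 of them turned to the other side at 2 W with median scaling and 2 with 75th percentile scaling. *Zeb1* at both times and *Snai1* at 1 W lay near day 0, and *Snai1* was at a log2 ratio of 0.46 at 2 W, all with a sign that depended on the scaling. At an unadjusted p of 0.05, 1 of the 9 tested probe sets was higher at 1 W (*Runx1*; 8.21% of all tested) and 0 were lower (9.66% of all tested). At 2 W, 1 was higher (*Runx1*; 9.01% of all tested) and 2 were lower (*Zeb2*; 21.9% of all tested). A share of 2 in 9 is close to that background, which held many lower values at 2 W.

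**Figure D1:**
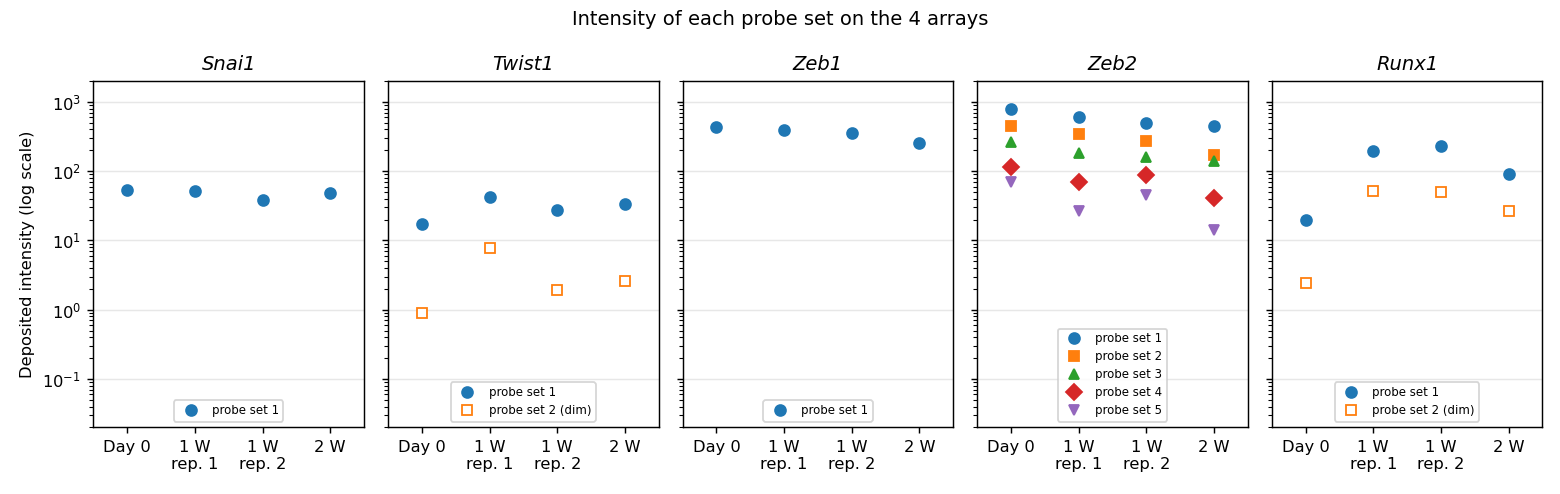
Deposited intensity (log scale, no replicate averaging) of the 11 probe sets on the day 0, 1 W replicate 1, 1 W replicate 2 and 2 W arrays, with 1 panel for each gene and open symbols for the 2 probe sets below the level filter (dim). *Runx1* probe set 1 stood at 19.9 on day 0 and between 91.2 and 231 afterwards, and *Zeb1* stayed between 255 and 434 before scaling.

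*Runx1* had the largest ratios. Its brighter probe set, probe set 1, read 19.9 on day 0, 198 and 231 at 1 W and then 91.2 at 2 W. All 3 later arrays were thus well above day 0, and both arrays at 1 W were above the one at 2 W. After scaling, the ratios were 11.1-fold and 13.5-fold on replicates 1 and 2 at 1 W and 6.78-fold at 2 W. On the log2 scale the 1 W ratio was 3.62 ± 0.25 (SE, limma; n = 2 arrays against 1), with a 95% interval of 2.94 to 4.30, and the 2 W ratio was 2.76 ± 0.29 (n = 1 against 1), with an interval of 1.98 to 3.55. The replicates differed by 0.28, far less than either ratio. Among the 18625 tested probe sets this ratio ranked 61 on replicate 1, 25 on replicate 2 and 114 at 2 W from the highest. The limma p was 0.000106 at 1 W and 0.00056 at 2 W, and after adjustment over all tested probe sets it was 0.0828 and 0.0553. Both adjusted values missed the threshold, and both passed it when arrays were scaled by their median (0.00323 at 1 W and 0.008 at 2 W) or not scaled at all, and the 2 W value also with 75th percentile scaling (0.0486). Over the alternatives tested the adjusted p ran to 0.295 at 1 W and to 0.149 at 2 W. *Runx1* is among the genes that the authors listed from these same arrays, so its direction here is not independent evidence. In bulk RNA of a whole capsule, more cells that express a gene and more RNA per cell cannot be told apart.

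The second *Runx1* probe set was dim and was not tested. It read 2.42 on day 0, 51.5 and 50.4 at 1 W and then 26.6 at 2 W. Day 0 was again the lowest and the 2 W array again lay below both arrays at 1 W. Its folds were 23.9 and 24.2 at 1 W and 16.3 at 2 W. These folds rest on a day 0 value near the bottom of the array. With values below the 20th percentile of each array set to that percentile, its log2 ratios were 2.45, 2.47 and 1.89. At 2 W against 1 W, *Runx1* probe set 1 had a log2 ratio of -0.86 ± 0.25, or 0.552-fold, with an interval of -1.54 to -0.18 and a limma adjusted p of 0.186. It was the only one of the 9 tested probe sets with an unadjusted p under 0.05 for 2 W against 1 W, on the lower side (1 of 9; 16.4% of all tested), and 0 were on the higher side (5.5% of all tested). No tested probe set of the array passed the adjusted threshold in that comparison (0%), and the lowest adjusted p was 0.139.

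*Twist1* had the next largest ratios. Its brighter probe set read 17.4 on day 0, 41.8 and 27.7 at 1 W and then 33.2 at 2 W, so that all later arrays were above day 0 and replicate 2 was the lowest of them. The folds were 2.70 and 1.86 on the replicates at 1 W and 2.83 at 2 W. The log2 ratio was 1.16 ± 0.47 at 1 W (interval -0.14 to 2.47) and 1.50 ± 0.55 at 2 W, with limma p of 0.0684 and 0.0503 and adjusted p of 0.308 and 0.162. Its percentile among the tested probe sets was 96.8 at 1 W and 97.3 at 2 W. The replicates differed by 0.54, which is more than the median probe set and within the 90th percentile. The second *Twist1* probe set was very dim, at 0.907 on day 0, 7.87 and 1.93 at 1 W and then 2.64 at 2 W. Its log2 ratios of 3.29, 1.31 and 2.11 became -0.26, 0.03 and -0.04 with the floor at the 20th percentile, so they say little about the gene.

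Of the 9 tested probe sets, 1 was over 2.0-fold on each of the 3 later arrays (*Runx1* probe set 1; 2.05% of all tested) and 0 were under 0.5-fold on each (2.08% of all tested). Counting the 2 dim probe sets, 3 of 11 were over 2.0-fold on each array, beside 4.32% of all 31042 probe sets. These were both probe sets of *Runx1*, thus 1 gene, and the very dim *Twist1* probe set 2. With the floor at the 20th percentile the count was 2, without *Twist1*. *Twist1* probe set 1 missed that rule on replicate 2 at 1 W alone. A further count gave 2 of 9 above day 0 on each later array (*Runx1* and *Twist1*; 22.7% of all tested) and 5 of 9 below it on each (all of *Zeb2*; 41% of all tested), of which 1 turned above day 0 at 2 W with median scaling and 2 with 75th percentile scaling.

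**Figure D2:**
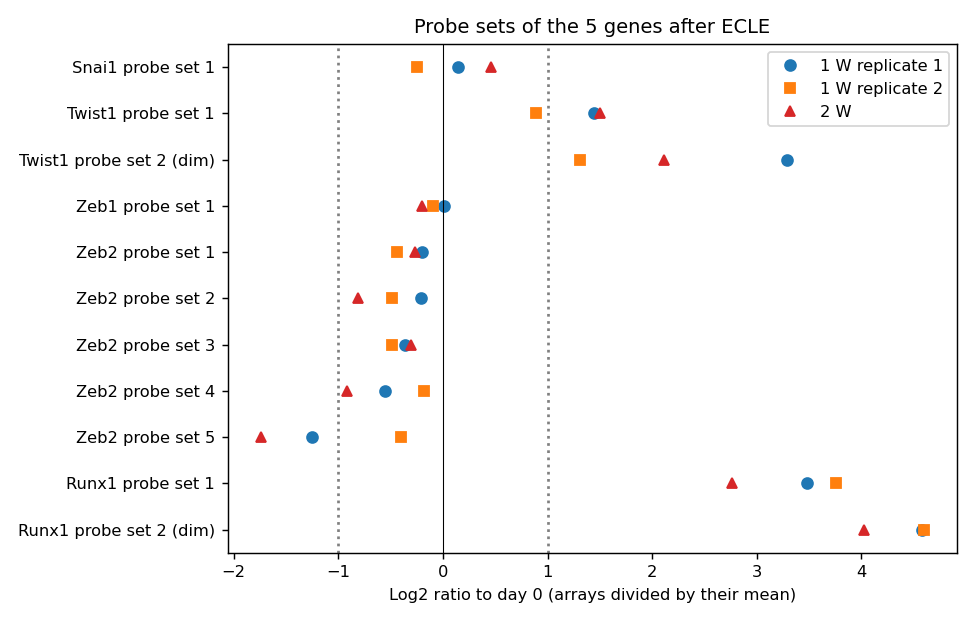
Log2 ratio to day 0 (horizontal axis, arrays divided by their mean) of each probe set on 1 W replicate 1, 1 W replicate 2 and 2 W, with dotted lines at the 2.0-fold and 0.5-fold limits and dim marking probe sets that were not tested. *Runx1* lies between 2.76 and 4.60 at its 2 probe sets and all *Zeb2* points lie below 0, although at 2 W *Zeb2* probe set 1 turned to 0.01 with median scaling and, with 75th percentile scaling, probe sets 1 and 3 turned to 0.05 and 0.01.

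*Zeb2* was measured by 5 probe sets, all tested. Probe set 1 read 792 on day 0, 615 and 503 at 1 W and then 444 at 2 W, and probe set 2 read 448, 344, 274 and 172 in the same order. In both, the arrays kept 1 order, with day 0 highest and 2 W lowest before scaling. Probe set 3 read 260 on day 0, 180 and 159 at 1 W and then 142 at 2 W, probe set 4 read 116, 70.3, 87.6 and 41.4, and probe set 5 read 70.6, 26.4, 45.8 and 14.3. After scaling, the 1 W log2 ratios were close together at the first 4 probe sets (-0.32, -0.35, -0.42 and -0.37) and -0.83 at the fifth. At 2 W they spread further, from -0.27 at probe set 1 and -0.30 at probe set 3 to -0.81, -0.92 and -1.74 at probe sets 2, 4 and 5. The 5 probe sets of this gene differed in size at 2 W by more than at 1 W. They share their RNA and are not replicates.

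For *Zeb2* probe set 1 the log2 ratio was -0.32 ± 0.17 at 1 W (interval -0.78 to 0.15, limma adjusted p 0.389) and -0.27 ± 0.19 at 2 W (interval -0.80 to 0.27, adjusted p 0.404). This 2 W value was close to the median of all tested probe sets (-0.26), at percentile 49.8. Probe sets 2 and 5 had the lowest limma p at 2 W (0.021 and 0.0436, adjusted 0.109 and 0.151), and probe set 5 lay at percentile 3.25. The direction at 2 W depended on the scaling for some of them, since probe set 1 was at 0.01 with median scaling and at 0.05 with 75th percentile scaling, and probe set 3 was at 0.01 with the 75th percentile.

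*Zeb1*, the other member of the ZEB family, read 434 on day 0, 390 and 351 at 1 W and then 255 at 2 W. These values had the same order as the array means, which were 244, 218, 210 and 165. After scaling the ratios were 1.01-fold and 0.942-fold at 1 W and 0.87-fold at 2 W, and the sign turned at both times with median, 75th percentile or quantile scaling. The log2 ratio was -0.04 ± 0.15 at 1 W (interval -0.46 to 0.39) and -0.20 ± 0.18 at 2 W (interval -0.69 to 0.29), with limma adjusted p of 0.913 and 0.483. These intervals leave room for a difference of up to 0.46 log2 units below day 0 at 1 W and 0.69 below it at 2 W.

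*Snai1* read 52.7 on day 0, 51.8 and 38.2 at 1 W and then 49.0 at 2 W. The replicates at 1 W lay on both sides of day 0 after scaling (0.14 and -0.25), and the 2 W array was the highest (0.46). The log2 ratio was -0.05 ± 0.35 at 1 W (interval -1.01 to 0.90) and 0.46 ± 0.40 at 2 W (interval -0.64 to 1.56), with limma adjusted p of 0.945 and 0.48. A change of 2.0-fold is thus just inside the interval on the lower side at 1 W and inside it on the higher side at 2 W. Its percentile among tested probe sets was 52.1 at 1 W and 84.3 at 2 W, while the 2 W value was 0.73 to 0.78 with median, 75th percentile and quantile scaling and turned to -0.11 without scaling, and the sign at 1 W turned with median, 75th percentile and quantile scaling (0.07, 0.02 and 0.06).

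**Figure D3:**
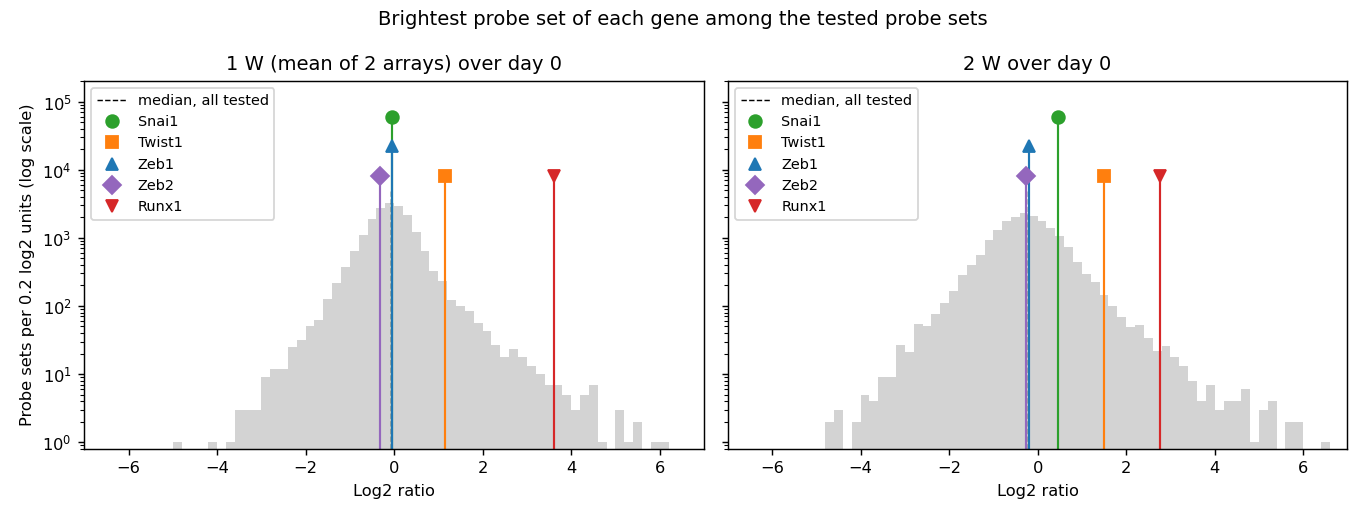
Histogram (grey, log scale, bins of 0.2 log2 units) of the log2 ratio to day 0 of the 18625 tested probe sets at 1 W, as the mean of 2 arrays, and at 2 W, with the brightest probe set of each gene marked; the height of a marker carries no value. *Runx1* sits in the upper tail at 3.62 and 2.76, *Twist1* at 1.16 and 1.50, and *Snai1*, *Zeb1* and *Zeb2* lie within 0.5 of 0, where *Snai1* and *Zeb1* at both times and *Zeb2* at 2 W change sign under other scalings.

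Likeness of pattern was measured as the distance between the 3 log2 ratios (both replicates at 1 W and the 2 W array) over 10454 other genes. *Runx1* had few neighbours, with 1 gene within 0.5. This was *Ptgs2*, which encodes the inducible cyclooxygenase, at a distance of 0.34 (log2 ratios 3.34, 3.47 and 2.65). *Itga11*, a collagen receptor subunit (3.31, 3.27 and 2.74), followed at 0.51 and *Cybb*, a subunit of the phagocyte NADPH oxidase (3.64, 3.28 and 3.02), at 0.57. *Twist1* had 46 genes within 0.5, and the nearest were *Rhobtb3* (1.40, 0.84 and 1.46; distance 0.08), *Nrp2*, a semaphorin and VEGF co-receptor (1.36, 0.89 and 1.56; distance 0.09), and *Mgll*, monoacylglycerol lipase (1.38, 0.87 and 1.59; distance 0.11). The other 3 genes sat where the array is dense. *Snai1* had 884 genes within 0.5, led by *Gfra2*, *Exoc3l2* and *Zfp40* (distances 0.04, 0.09 and 0.09). *Zeb2* had 1887, led by *Arl10*, *Lime1* and *Magt1* (0.02, 0.04 and 0.06), and *Zeb1* had 3005, led by *Ncbp1*, *Slx4* and *Ltbr* (0.02, 0.02 and 0.03).

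Genes that work with or beside these factors were described by counts and medians and given no test as lists. As background, 4.28% of all 14217 genes were over 2.0-fold on each later array, 2.59% were under 0.5-fold on each, 33.4% were below day 0 on each, and the median log2 ratio of all genes was -0.02 (1 W) and -0.16 (2 W). Of 16 other EMT transcription factors with a probe set, 12 were tested and 0 passed the adjusted test at either time. Their log2 ratios had medians of 0.23 (1 W) and 0.17 (2 W), and the 2 W median turned to -0.39 without scaling. The 2 brightest were *Sox4* (-0.30 and -0.94, limma adjusted p 0.321 and 0.0624) and *Tead1*, a partner of YAP (0.24 and -0.17). Only *Prrx1*, a homeobox factor of mesenchyme, was over 2.0-fold on each array. Chosen after its values were seen, it read 10.3 on day 0, 44.0 and 25.1 at 1 W and then 39.9 at 2 W, with limma adjusted p of 0.224 and 0.0956.

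The cofactors and regulators of SNAI, TWIST and ZEB proteins, among them corepressors, inhibitors of DNA binding and ubiquitin ligases, were all tested (22 of 22) and 0 passed. Their median was -0.17 at 1 W and -0.42 at 2 W, and 12 of them were below day 0 on each later array (9 with median scaling and 14 without scaling), beside the 33.4% of all genes. *Id3*, an inhibitor of helix-loop-helix factors, was at -0.17 and -0.66 (limma adjusted p 0.601 and 0.108), and *Hdac2*, a histone deacetylase, was at 0.20 and 0.03. Among 10 EMT antagonists, epithelial factors that oppose the process, 5 were tested and 0 passed. Their medians were -0.29 and -0.01, with the 2 W value between 0.26 and 0.30 under median, 75th percentile and quantile scaling. *Klf4* was at 0.31 and -0.10, and *Klf5* at 0.85 and 0.48.

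Genes that SNAI, TWIST and ZEB proteins are known to repress or that accompany EMT were set beside the factors. Of 20 epithelial genes, 13 were tested and 0 passed, with medians of -0.07 at 1 W, which turned positive under median, 75th percentile and quantile scaling (0.05, 0.01 and 0.04), and -0.41 at 2 W. *Cdh1* read 6852 on day 0, 3008 and 2485 at 1 W and then 1250 at 2 W, and had the lowest ratios of those tested, with log2 ratios of -1.13 and -1.89 and limma adjusted p of 0.116 and 0.0553. It was under 0.5-fold on each later array, as was *Epcam*, an epithelial adhesion gene that was not tested, and this count of 2 was 1 with median or 75th percentile scaling and 4 without scaling. *Tjp1*, a tight junction scaffold, was at 0.11 and 0.45. *Cldn4*, a tight junction claudin, was over 2.0-fold on each array with a day 0 value of 0.94, and it and *Epcam* were picked after their values were seen.

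Of 21 mesenchymal genes, 19 were tested and 2 passed at each time, the same pair of *Fn1* and *Col1a1*. *Fn1*, which encodes fibronectin, read 44.5 on day 0, 979 and 915 at 1 W and then 469 at 2 W, and rose by 4.60 ± 0.15 (SE) at 1 W and by 3.96 ± 0.17 at 2 W on the log2 scale (limma adjusted p 0.0297 and 0.0493). *Col1a1*, a collagen I chain, read 25.4, 471, 431 and 645 in the same order and rose by 4.34 ± 0.17 and 5.23 ± 0.19 (limma adjusted p 0.03 and 0.0405). These calls depended on the processing. Without the intensity trend both genes missed the threshold at both times (0.295 at 1 W and 0.149 at 2 W for each). With quantile normalization both missed it at 2 W (0.0563 for *Fn1* and 0.0559 for *Col1a1*), as did *Fn1* at 2 W with the filter at the 60th percentile or the floor (0.0509 each), and both missed it with all arrays after ECLE as 1 group (0.0523 and 0.0546). The study listed both from these same arrays, so that their direction does not count as independent evidence. In all, 9 of the 21 were over 2.0-fold on each later array, and the list's median was 1.11 at 1 W and 1.34 at 2 W. The other collagen I chain of the list, *Col1a2*, was named after its values were seen. It read 1768 on day 0, 1727 and 1188 at 1 W and then 1542 at 2 W. After scaling its log2 ratios were -0.11 at 1 W and 0.37 at 2 W, unlike those of *Col1a1*.

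Of 18 RUNX relatives, partners and cofactors, 15 were tested and 0 passed, with medians of 0.17 and 0.23 (-0.03 and -0.34 without scaling). *Cbfb*, whose product pairs with RUNX1, read 470 on day 0, 703 and 629 at 1 W and then 406 at 2 W. Chosen after its values were seen, it had log2 ratios of 0.69 and 0.36 with limma adjusted p of 0.165 and 0.23. *Ep300*, an acetyltransferase coactivator, was at -0.65 and -1.06 (0.165 and 0.0602), and *Tle4*, a Groucho corepressor, at 0.77 and 0.74 (0.19 and 0.114). *Runx3*, also picked after its values were seen, was dim and lay at -0.83 and -0.13. Only *Lmo2*, a blood and endothelial cofactor named after its values were seen, was over 2.0-fold on each array (1.98, 1.30 and 1.89), and the count was 2 with median or quantile scaling.

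A further list of 13 genes mixed myeloid transcription factors with genes listed as RUNX1 targets, of which 6 were tested and 0 passed. The medians were 0.96 (1 W) and 0.85 (2 W). On each later array, 4 of the 13 were over 2.0-fold. These were *Csf1r*, *Itgal*, *Cd4* and *Tnfrsf11b*, where all but *Csf1r* were named after their values were seen. *Cd4* was not tested, and *Tnfrsf11b* read 3.13 on day 0. The list is mixed, so this count does not measure myeloid cells or RUNX1 activity. *Csf1r*, the receptor of the macrophage growth factor CSF1, read 38.6 on day 0, 207 and 136 at 1 W and then 82.6 at 2 W. *Cebpb*, a myeloid and stress factor, read 39.0, 168, 141 and 50.6 in that order. As with *Runx1*, both were higher on the 2 arrays at 1 W than at 2 W. *Csf1r* is also counted among the macrophage markers.

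Markers of other cells were read beside these results. Of 17 macrophage markers, 13 were over 2.0-fold on each later array and 0 were below day 0 on each, while 15 were tested and 0 passed. Without scaling 7 of the 17 were over 2.0-fold on each, with a median of 0.90 at 2 W. With mean scaling their median log2 ratio was 2.20 and 1.98 in the 1 W replicates and 1.47 at 2 W, and their summed level was 6.30, 5.03 and 3.58 times that of day 0. *Lyz2*, lysozyme, was at 3.06 and 2.38 and *Fcer1g*, an Fc receptor chain, at 2.32 and 1.57. *Adgre1*, *Itgb2*, *Mrc1* and *Cd163*, named after their values were seen, missed the 2.0-fold rule. At 2 W, *Mrc1* was at 0.934-fold and *Cd163*, which was not tested, at 0.582-fold of day 0. *Runx1* and the median and sum of the macrophage markers stood highest at 1 W. With mean scaling so did *Fn1* (4.60 at 1 W and 3.96 at 2 W) and the median of the mixed myeloid list (0.96 and 0.85). This order was thus not particular to macrophage markers. The medians of the mesenchymal genes (1.11 and 1.34) and of the fibroblast and stroma markers (0.42 and 1.09) had the other order. Between the replicates, *Runx1* was higher on replicate 2 (3.48 on replicate 1 and 3.76 on replicate 2), and the macrophage sum was higher on replicate 1. The part of these markers in the *Runx1* ratio was not tested.

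Other markers moved more unevenly. Of 12 fibroblast and stroma markers, 5 were over 2.0-fold on each later array and *Pdgfra*, named after its values were seen, was under 0.5-fold on each. This list shares *Col1a1*, which passed the adjusted test as given above, with the mesenchymal genes. It also shares *Col1a2* and *Col3a1*, both named after their values were seen. *Col1a1* and *Col3a1* are thus in the 2.0-fold counts of both lists. The summed level of the 12 markers was 2.40, 1.07 and 2.36 times that of day 0 on replicates 1 and 2 and at 2 W. The sums were 2.61, 0.997 and 1.55 for 11 endothelial and mural cell markers and 6.17, 2.21 and 3.40 for 8 pigment cell markers. All 3 sums were lower on replicate 2 than on replicate 1, and so was *Twist1* probe set 1 (2.70-fold on replicate 1 and 1.86-fold on replicate 2). The fibroblast sum was carried largely by *Dcn*, which encodes decorin and was picked after its values were seen (4238 on replicate 1 and 506 on replicate 2), and the median log2 ratio of that list had the opposite order, at 0.22 on replicate 1 and 0.75 on replicate 2. The part of these markers in the *Twist1* ratio was not tested. Among 10 lymphocyte markers, 0 were bright enough to test and 1, *Cd3g*, named after its values were seen, was over 2.0-fold on each later array. The 10 photoreceptor markers were below day 0 on each later array, with medians of -3.46, -1.24 and -2.84, and their summed level was 0.101, 0.424 and 0.133 times that of day 0. Photoreceptor transcripts were therefore brightest on the day 0 array, which is in every ratio to day 0 given here. Their part in the ratios of the 5 genes was not tested.

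**Figure D4:**
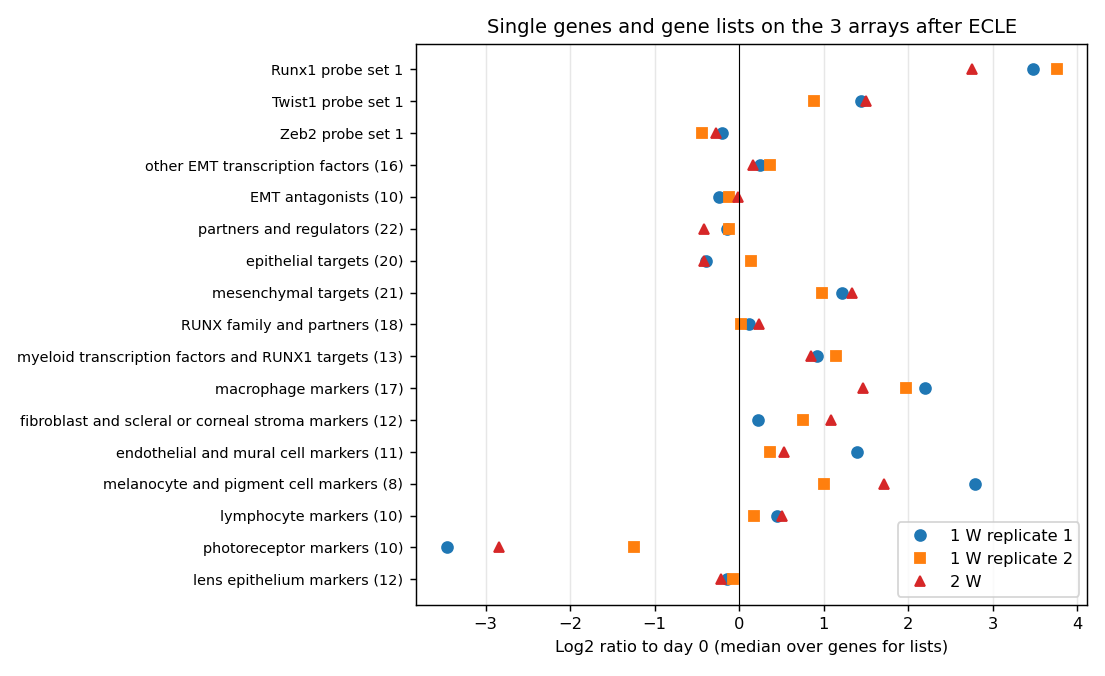
Log2 ratio to day 0 of 3 probe sets and median log2 ratio of each gene list (number of genes in brackets) on 1 W replicate 1, 1 W replicate 2 and 2 W. *Runx1* lies between 2.76 and 3.76, the macrophage markers between 1.47 and 2.20, the other EMT transcription factors between 0.17 and 0.36 (-0.39 at 2 W without scaling), and the photoreceptor markers between -3.46 and -1.24; at 2 W *Zeb2* turns to 0.01 and 0.05 with median and 75th percentile scaling.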

How the data were processed

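Expression was measured on 4 Affymetrix rat genome arrays. The authors labeled and hybridized the RNA, scanned the arrays and processed the images in Expression Console and Command Console from Affymetrix. The deposited value is a linear intensity (31099 probe sets). Neither the summary algorithm nor any scaling already in these values is known here. From the deposited intensity, 57 control probe sets were left out, each array was divided by its mean, as the methods of the study allow, and log2 was taken.

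Probe sets whose mean log2 level was under the 40th percentile were left untested, and the rest went into limma 3.58.1 in R 4.3.3 (lmFit and trended eBayes on 3 groups, two-sided p with Benjamini-Hochberg adjustment over all tested probe sets, threshold 0.05), with 1 residual and 3.12 prior degrees of freedom. The labels call the 2 arrays at 1 W biological replicates. The p-values rest on the spread between these 2, which limma moderates for each probe set towards that of probe sets of like intensity. The script was tested on simulated data. Tables used Python 3.11.15, numpy 2.4.6, pandas 2.3.3 and matplotlib 3.10.9. A gene with several probe sets is represented by the one of highest mean level. Gene names come from the platform annotation. No detection calls were used here, and how far dim probe sets lie above background is unknown.

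Named genes are all probe sets of the 6 listed genes and the 3 genes nearest in pattern to each. Of a list, up to 2 called genes in each direction are named, or else its 2 brightest. The brightest genes of the endothelial, pigment cell, lymphocyte and photoreceptor lists are not named. Any other gene was named after its values were seen and is marked so in the text. The genes and lists were chosen with earlier results of these data known. Alternatives were no scaling, scaling by the median or 75th percentile, quantile normalization, other filters or a floor on dim values, robust limma or limma without the trend, a single group of all arrays after ECLE, a linear 1 W mean, and leaving out either 1 W replicate, where no residual degrees of freedom remain and only values are given.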

Additional observations from a re-analysis of the deposited data

How the results depend on the processing

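The count of tested probe sets of the 5 genes that passed the adjusted threshold was 0 in each comparison, and scaling was the choice that moved it. At 1 W it was 1 without scaling and 1 with median scaling, *Runx1* in both. At 2 W it was 7 without scaling, 1 with median scaling and 1 with 75th percentile scaling, and for 2 W against 1 W it was 2 without scaling. Scaling also moved the median of all tested probe sets, to -0.27 and -0.83 at 1 W and 2 W without scaling and to 0.04 and 0.01 with the median, so the 7 include *Zeb1* (-0.77) and *Zeb2* probe set 1 (-0.83). The *Snai1* ratio at 1 W (-0.05) turned to 0.07, 0.02 and 0.06 with median, 75th percentile and quantile scaling and to 0.12 with all arrays after ECLE as 1 group, and without a replicate it was -0.25 to 0.14. At 2 W (0.46) it turned to -0.11 without scaling and was 0.73 to 0.78 with the other scalings. *Zeb1* at 1 W (-0.04) turned to 0.08, 0.04 and 0.03 in the same order of scalings and was -0.09 to 0.01 without a replicate, and at 2 W (-0.20) to 0.07, 0.11 and 0.05. *Zeb2* probe set 1 at 2 W (-0.27) turned to 0.01 with the median and 0.05 with the 75th percentile. *Runx1* and *Twist1* probe set 1 stayed above day 0 in all alternatives run, and the count over 2.0-fold on each array (3 of 11) was 2 to 4. Over all tested probe sets, limma called 9 higher and 0 lower at 1 W and at 2 W. Without scaling the calls were 87 higher and 163 lower (1 W) and 344 higher and 7630 lower (2 W). With median scaling they were 260 higher and 146 lower (1 W) and 948 higher and 683 lower (2 W), and with the 75th percentile 276 higher and 123 lower (2 W). It called 0 at 2 W with quantile normalization, 5 with a floor or with the filter at the 60th percentile, 6 with no filter, and 0 at both times without the trend. With all arrays after ECLE as 1 group it called 4. For 2 W against 1 W it called 193 higher and 4228 lower without scaling, 158 and 51 with median scaling, and 0 otherwise. The cause of these differences was not tested. No paired analysis was possible because day 0 and 2 W have 1 array each and nothing in the labels ties an array of one group to an array of another. With 1 array at day 0 and at 2 W, no ratio has a replicate on both sides, and dim probe sets are the least certain.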
